A study of Mus musculus with 6 samples.

Results

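The genes described here encode nuclear subunits of respiratory complexes III, IV and V. They were chosen by symbol: every feature whose symbol begins with Uqcr, with Cox and a digit of 4 to 8, or with Atp5, without pseudogenes. The rule found 44 of 31253 measured features, 8 of complex III, 18 of complex IV and 18 of complex V, and left out 1 pseudogene. Atp5o is listed under 2 identifiers, of which ENSMUSG00000116933 overlaps the gene's other entry on chromosome 16 and held 1 UMI (unique molecular identifier, a tag of 1 captured RNA molecule) in all, so Atp5o below means ENSMUSG00000022956. The rule does not take in the subunits that mitochondrial DNA encodes, nor Cyc1, Cycs and Ndufa4, which are given apart.

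Sorted bone marrow cells of 3 Txnip knock-out (Txnip-KO) and 3 wild-type (WT) mouse samples were compared by droplet single-cell RNA sequencing that reads the 3' end of transcripts. Txnip encodes thioredoxin-interacting protein. The sources used here do not give the sorted population, the age and strain of the mice or the part of Txnip that was deleted, and nothing in them states that the 3 samples per genotype are separate animals. P-values therefore measure the spread among 6 samples, part of which could be technical.

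Complex III passes electrons from ubiquinol to cytochrome c, complex IV passes them on to oxygen, and both pump protons across the inner mitochondrial membrane. Complex V is the ATP synthase, which lets the protons flow back through a ring of c subunits and makes ATP in its catalytic head. Most subunits are encoded in the nucleus and made in every tissue, while several complex IV subunits have a second gene used in muscle, lung or testis. The transcription factors NRF1, GABP (of the ETS family) and YY1 are known to bind the promoters of many of these genes.

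Promoters of 33 of the 43 member symbols were found in the RefSeq promoter table (build GRCm38.p6, 250 bases before to 50 after each gene's start). The motifs searched on both strands were GCGCA, any base and GCGC in a row for NRF1, CCGGAAG for ETS factors and AAGATGGC for YY1. At least 1 of them was in 18 of the 33 promoters (54.5%), against 16.3% of the promoters of 26992 other genes. NRF1's letters were in 8 (24.2%, against 5.16%), those of ETS in 11 (33.3%, against 9.9%) and those of YY1 in 3 (9.09%, against 3.18%). Promoters of the muscle and testis isoforms Cox6b2, Cox7a1, Cox7b2 and Cox8b held 0 of the 3. The 6 promoters below belong to the 2 members of each complex with the smallest p over all kept cells that are in the table, tissue forms aside, and show matches in capitals. Uqcrc1 (chr9:108936398-108936697, plus strand), Cox6a1 (chr5:115348909-115349208, minus strand), Atp5o (chr16:91931581-91931880, minus strand) and Atp5pb (chr3:105959214-105959513, minus strand) hold at least 1 match. Uqcrfs1 (chr13:30545267-30545566, minus strand) and Cox7b (chrX:106015450-106015749, plus strand) hold none. A match is a description of the letters and not a bound site, and no matches of different motifs overlapped in these 6.
Uqcrfs1: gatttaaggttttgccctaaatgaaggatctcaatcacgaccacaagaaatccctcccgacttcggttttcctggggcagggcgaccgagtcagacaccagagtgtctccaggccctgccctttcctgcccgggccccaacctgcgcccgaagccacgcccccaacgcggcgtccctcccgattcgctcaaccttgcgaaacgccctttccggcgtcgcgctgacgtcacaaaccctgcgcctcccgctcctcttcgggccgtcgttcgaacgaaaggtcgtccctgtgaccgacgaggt
Uqcrc1: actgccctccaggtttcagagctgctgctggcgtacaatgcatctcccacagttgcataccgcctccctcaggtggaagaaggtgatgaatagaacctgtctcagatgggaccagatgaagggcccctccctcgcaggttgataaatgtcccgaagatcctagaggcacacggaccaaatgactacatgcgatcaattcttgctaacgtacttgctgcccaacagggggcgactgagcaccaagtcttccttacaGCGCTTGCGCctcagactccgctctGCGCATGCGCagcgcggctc
Cox6a1: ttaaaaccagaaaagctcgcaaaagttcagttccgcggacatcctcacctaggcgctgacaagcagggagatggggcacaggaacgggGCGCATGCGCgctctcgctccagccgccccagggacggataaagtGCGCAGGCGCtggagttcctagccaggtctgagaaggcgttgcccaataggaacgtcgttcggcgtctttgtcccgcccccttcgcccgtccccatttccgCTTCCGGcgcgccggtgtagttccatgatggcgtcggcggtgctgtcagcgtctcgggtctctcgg
Cox7b: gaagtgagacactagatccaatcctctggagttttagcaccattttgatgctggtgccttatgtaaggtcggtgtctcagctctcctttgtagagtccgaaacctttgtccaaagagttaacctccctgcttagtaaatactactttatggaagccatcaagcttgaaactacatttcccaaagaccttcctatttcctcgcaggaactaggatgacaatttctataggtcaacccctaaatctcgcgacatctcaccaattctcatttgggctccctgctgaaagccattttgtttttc
Atp5o: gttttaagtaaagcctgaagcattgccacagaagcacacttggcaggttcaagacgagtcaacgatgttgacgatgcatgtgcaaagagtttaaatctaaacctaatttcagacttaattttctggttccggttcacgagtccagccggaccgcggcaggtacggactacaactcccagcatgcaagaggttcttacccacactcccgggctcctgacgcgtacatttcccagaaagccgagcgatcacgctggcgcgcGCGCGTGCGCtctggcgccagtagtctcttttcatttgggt
Atp5pb: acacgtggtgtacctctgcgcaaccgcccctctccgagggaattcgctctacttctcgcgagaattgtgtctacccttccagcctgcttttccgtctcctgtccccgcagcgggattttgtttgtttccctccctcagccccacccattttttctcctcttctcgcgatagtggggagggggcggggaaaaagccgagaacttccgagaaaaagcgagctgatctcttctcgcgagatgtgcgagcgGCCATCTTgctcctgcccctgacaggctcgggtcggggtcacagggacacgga

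The files hold 48277 barcodes with 61368478 to 80688688 UMIs per Txnip-KO sample and 72152212 to 80876483 per WT sample, of which 41513 cells were kept after filters. The median cell held 6936 to 8189 UMIs in Txnip-KO samples and 8923 to 9197 in WT samples. Pairs of samples shared 9 to 23 barcodes. Txnip stood at 10.0, 9.45 and 0.450 CPM (counts per 1000000 UMIs, scaled between samples by edgeR's TMM method) in Txnip-KO 1, 2 and 3, against 311, 215 and 286 in WT 1, 2 and 3 (log2 fold change -5.35, SE 0.80). A UMI of at least 1 gene of a fixed list of 8 dividing-cell genes was held by 29.2% to 35.6% of Txnip-KO cells and 40.4% to 44.8% of WT cells, and all 8 genes of the list fell in Txnip-KO.

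Over all kept cells, subunits of all 3 complexes were lower in Txnip-KO. Of the 40 members with enough counts to test, 33 fell and 0 rose (edgeR quasi-likelihood test on UMIs summed per sample, Benjamini-Hochberg adjusted p under 0.05 over 14651 genes), while 19.4% of all genes tested fell and 21.6% rose. No member was higher at an unadjusted p under 0.05 either, nor by DESeq2's Wald test. Several of these genes have processed pseudogenes in the mouse genome, and how reads shared with such copies were counted is not given. In 36 of the 40 every Txnip-KO sample lay below every WT sample, as it did in 26.1% of all genes. The median log2 fold change of members was -0.39, beside 0.037 for all genes. Complex III had 7 of 8 members lower (median -0.37), complex IV 11 of 15 (median -0.43) and complex V 15 of 17 (median -0.39). Without WT replicate 2 or WT replicate 3, complex V had 9 members lower. With total UMIs in place of TMM the median of all genes rose to 0.14, with 1980 genes lower and 4101 higher in place of 2840 and 3170, and 29 members fell. Among cells with no dividing-cell UMI 26 members fell, with 1996 of 13668 genes lower. In summed counts, fewer cells of a type that is rich in a transcript and less of it per cell cannot be told apart, so marker gates are used further on.

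**Figure D1:**
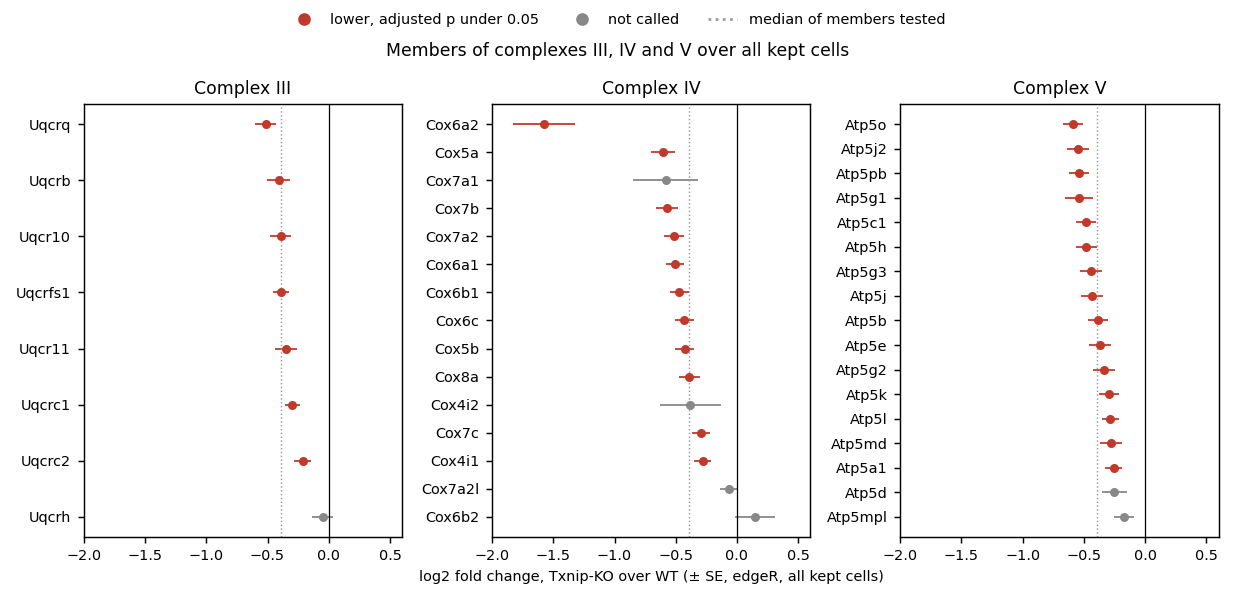
Log2 fold change of Txnip-KO over WT (x axis) for the 40 tested members over all kept cells, by complex, with bars of 1 SE. Red points are called lower and grey points are not called; the dotted line is the members' median of -0.39, and Cox6a2 lies farthest left at -1.58.

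Together the members took a smaller share of all UMIs in Txnip-KO. The share was 1.28%, 1.39% and 1.385% in Txnip-KO 1, 2 and 3, against 1.593%, 1.665% and 1.675% in WT 1, 2 and 3. All 3 Txnip-KO samples lay below all WT samples, at 82.2% of the WT mean. By complex, the Txnip-KO mean came to 88.4% of the WT mean for complex III, 80.6% for complex IV and 81.6% for complex V. A share is taken of each sample's own UMIs, with no scaling between samples.

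In complex III, the subunits with the smallest p were Uqcrq, Uqcrfs1 and Uqcrc1. Uqcrq, a small ubiquinone-binding subunit (chromosome 11, 53427922 to 53430831, minus strand, GRCm38), stood at 179, 214 and 198 CPM in Txnip-KO samples, against 266, 291 and 289 in WT samples. The groups did not overlap, and its log2 fold change was -0.52 (adjusted p = 0.00304, SE 0.084, edgeR). Uqcrfs1, the Rieske iron-sulfur protein that takes electrons from ubiquinol (chromosome 13, 30540308 to 30545362, minus strand), stood at 115, 126 and 121 CPM in Txnip-KO, against 152, 155 and 166 in WT. It too was lower in every Txnip-KO sample (log2 fold change -0.39, SE 0.069, adjusted p = 0.00389, edgeR). Uqcrc1, a core protein (chromosome 9, 108936633 to 108949623, plus strand), had 83.9, 90.6 and 85.1 CPM in Txnip-KO and 104, 108 and 107 in WT. These groups did not overlap either (-0.30, SE 0.063, adjusted p = 0.00752, edgeR). The other core protein, Uqcrc2, fell least of the 7 that were called (-0.21, adjusted p = 0.0414, edgeR), and Uqcrb, Uqcr10 and Uqcr11 lay between -0.41 and -0.35.

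The exception in complex III was Uqcrh, the hinge protein at the cytochrome c side (chromosome 4, 116066965 to 116075071, minus strand). It stood at 628, 690 and 762 CPM in Txnip-KO, against 704, 695 and 755 in WT. The groups overlapped (log2 fold change -0.051, SE 0.085, adjusted p = 0.657, edgeR), and the sign turned to 0.048 with total UMIs in place of TMM.

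In complex IV, the ubiquitous subunits fell together. Cox6a1 (chromosome 5, 115345642 to 115348981, minus strand), the widely used form of subunit 6a, stood at 143, 152 and 162 CPM in Txnip-KO, against 213, 211 and 226 in WT. The change of -0.51 (SE 0.072, adjusted p = 0.00199, edgeR) came with samples tight within each group. Cox7b (chromosome X, 106015700 to 106022450, plus strand) stood at 231, 280 and 273 CPM in Txnip-KO, against 376, 389 and 400 in WT (-0.57, SE 0.087, adjusted p = 0.00244, edgeR). Cox7a2 (chromosome 9, 79755361 to 79759878, minus strand), the form of subunit 7a made in most tissues, stood at 240, 283 and 277 CPM in Txnip-KO, against 363, 387 and 392 in WT (-0.51, SE 0.083, adjusted p = 0.00296, edgeR). In all 3 genes Txnip-KO replicate 1 was lowest and no groups overlapped. Cox5a fell by 0.60, and Cox6b1, Cox6c, Cox5b, Cox8a, Cox7c and Cox4i1 fell by 0.47 to 0.28 on the log2 scale.

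Cox7a2l, which joins complexes III and IV into supercomplexes and is no obligate subunit (chromosome 17, 83501918 to 83517330, minus strand), was not called. It stood at 411, 415 and 397 CPM in Txnip-KO, against 434, 406 and 443 in WT. The groups overlapped (-0.068, SE 0.067, adjusted p = 0.436, edgeR), and with total UMIs the sign turned to 0.033.

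In complex V, Atp5o, the oligomycin sensitivity protein of the stator (chromosome 16, 91925214 to 91931687, minus strand), stood at 193, 230 and 224 CPM in Txnip-KO, against 315, 323 and 336 in WT. Its log2 fold change was -0.59 (adjusted p = 0.00199, SE 0.084, edgeR). Atp5pb, the b subunit of the stator (chromosome 3, 105942698 to 105960099, minus strand), stood at 278, 326 and 322 CPM in Txnip-KO, against 435, 453 and 458 in WT (-0.54, SE 0.080, adjusted p = 0.00231, edgeR). Neither gene overlapped between groups, and both belong to the stalk that holds the head still. Atp5c1, the rotating gamma subunit (chromosome 2, 10056016 to 10080510, minus strand), stood at 246, 288 and 279 CPM in Txnip-KO, against 369, 378 and 390 in WT (-0.48, SE 0.078, adjusted p = 0.00302, edgeR). The 3 genes of the identical mature c subunit fell as well, Atp5g1 by 0.54, Atp5g2 by 0.33 and Atp5g3 by 0.44. The catalytic head subunits Atp5b and Atp5a1 fell by 0.39 and 0.26. The head's delta subunit Atp5d (-0.25, adjusted p = 0.0759) and the small membrane subunit Atp5mpl (-0.17, adjusted p = 0.109) were not called by edgeR, although both lay lower in every Txnip-KO sample than in any WT sample.

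**Figure D2:**
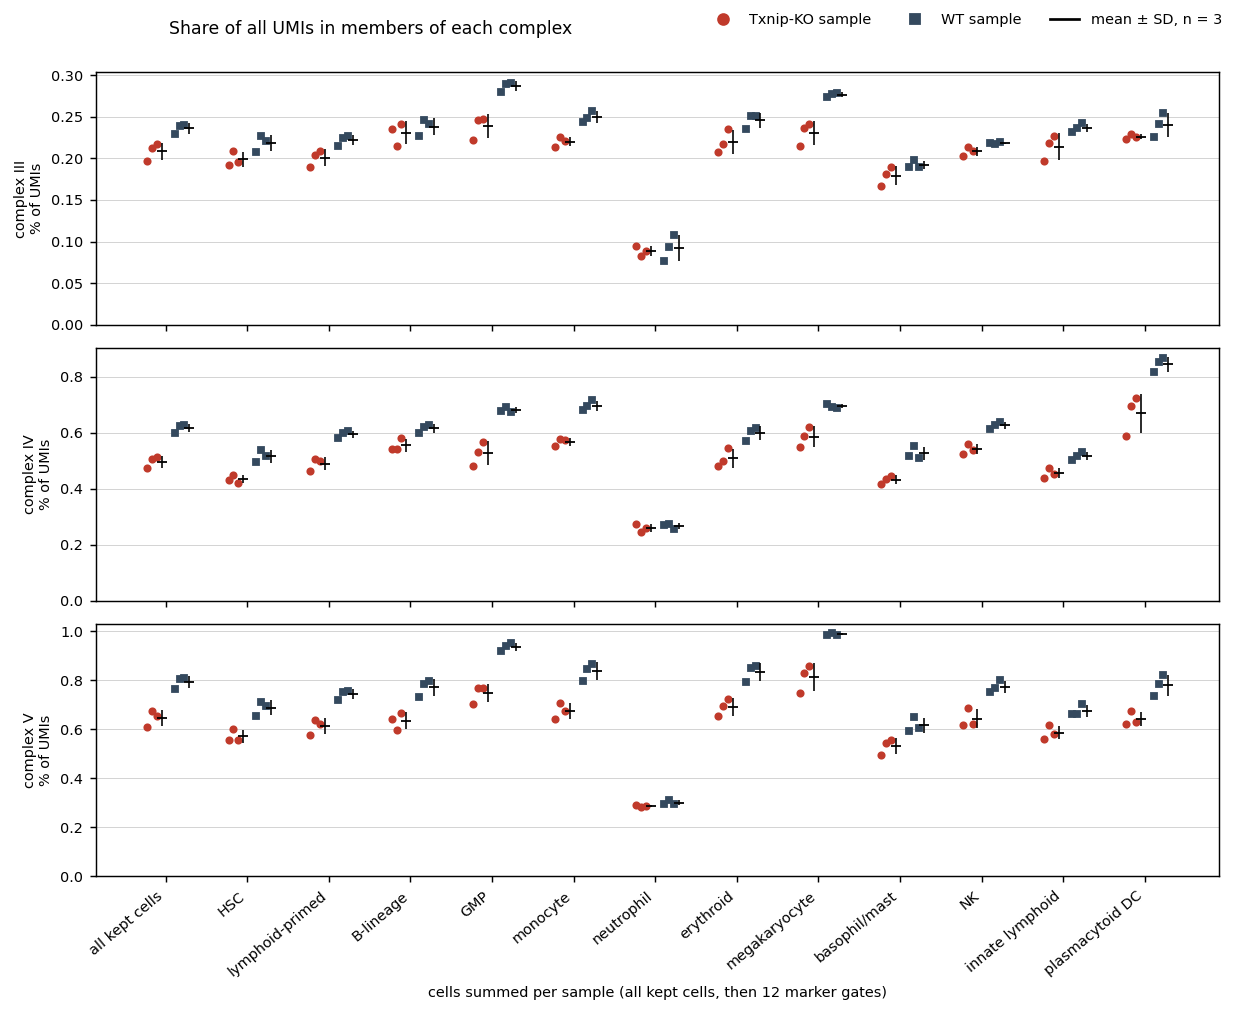
Share of all UMIs (%, y axis from 0) in members of complex III, IV and V for each sample, over all kept cells and in 12 marker gates (x axis). Red circles are Txnip-KO samples, blue squares WT samples, and black bars the mean ± SD (n = 3). The complex III shares of the groups overlap in the HSC, B-lineage, neutrophil, erythroid, basophil or mast and plasmacytoid dendritic gates. The complex IV shares overlap in the neutrophil gate only. In that gate the Txnip-KO shares are 0.0824% to 0.0944% for complex III and 0.246% to 0.273% for complex IV.

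The second genes of complex IV subunits differed widely in level. Cox6a2, the heart and skeletal muscle form of subunit 6a (chromosome 7, 128205435 to 128206387, minus strand), stood at 49.1, 79.1 and 96.7 CPM in Txnip-KO, against 166, 228 and 277 in WT. All Txnip-KO samples lay below all WT samples, at -1.58 on the log2 scale (adjusted p = 0.00304, SE 0.26, edgeR). With each gate drawn to an equal number of cells per sample it was -0.94. Cox6b2, the testis form of subunit 6b (chromosome 7, 4751792 to 4753094, minus strand), stood at 55.4, 71.7 and 92.6 CPM in Txnip-KO, against 61.1, 69.7 and 67.7 in WT. It was not called (0.15, SE 0.16, adjusted p = 0.496, edgeR), its Txnip-KO samples spread on both sides of WT, and without Txnip-KO replicate 3 the value was -0.062.

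The remaining isoforms were rare. The muscle form Cox7a1 held 29, 66 and 58 UMIs in Txnip-KO samples, against 76, 83 and 76 in WT samples (-0.58, adjusted p = 0.112, edgeR), and the lung form Cox4i2 held 42, 48 and 69, against 72, 82 and 62 (-0.38, adjusted p = 0.248, edgeR; 0.068 with each gate drawn to an equal number of cells per sample). Cox8b, a muscle form, held 0, 2 and 1 UMIs in Txnip-KO and 0, 2 and 0 in WT. The testis form Cox7b2 held 1 UMI in all, and the testis form Cox8c held 0 of 389516215 UMIs, which allows a level of up to 0.0077 CPM (3 counts of the total, counting error only). These 3 were not tested.

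Cell types were set by marker gates: a cell entered a gate when it held a UMI of at least 3 of the 6 markers of that type and led every other type by at least 2. Members of the complexes are not among the markers. The 12 gates with at least 20 cells in every sample hold 26468 cells (63.76% of kept cells). Their leading genes include 3 to 5 of their own markers among the first 10, which the gating rule itself brings about. The gates are HSC (hematopoietic stem cell), lymphoid-primed progenitor, B-lineage, granulocyte-monocyte progenitor, monocyte, neutrophil, erythroid, megakaryocyte lineage, basophil or mast, NK, innate lymphoid and plasmacytoid dendritic. T, conventional dendritic, plasma cell and stromal gates held too few cells. The monocyte gate may also hold dendritic cells, since Cd209a and H2-Eb1 are among its first 10 leading genes. Of the 6 conventional dendritic markers Cd209a, Naaa and Zbtb46 are highest in it, and Itgax, Xcr1 and Clec9a in other gates. They sum there to 625.5 to 803.2 CPM in Txnip-KO and 506.1 to 707 in WT. Monocytes below means the cells of this gate.

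Among WT samples, most members were higher in the monocyte, granulocyte-monocyte progenitor and megakaryocyte lineage gates and most were lower in the neutrophil gate. Each gate was set against the mean of the other gates for 39 tested members (edgeR with the sample as a block, 11880 genes). Levels in this comparison were scaled by TMM across the gates of the WT samples, so they differ from the values given for the same WT samples in the genotype tests, which are scaled within a gate. In the monocyte gate 37 members were higher and 1 lower, against 35.9% and 12.7% of all genes. The granulocyte-monocyte progenitor gate had 33 higher and 1 lower (35.6% and 18.2% of all genes), and the megakaryocyte lineage gate 33 higher and 2 lower (35.6% and 21%). In the NK gate 29 were higher and 2 lower (39.7% and 15.5%), and in the erythroid gate 22 and 4 (39% and 22.3%). The lymphoid-primed gate (17 higher, 8 lower, beside 44.1% and 17.4% of all genes), the plasmacytoid dendritic gate (15 and 3, beside 32% and 16.1%) and the B-lineage gate (13 and 2, beside 21% and 8.72%) lay near the middle. In B-lineage 8 were higher without WT replicate 1 or WT replicate 3.

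Lower levels were found in 4 gates. In neutrophils 37 of 39 were lower and 0 higher, against 26.7% and 13.6% of all genes, with a median of -1.55 on the log2 scale beside -1.20 for all genes. The 2 not called there, Cox6a2 and Cox7a1, rest on 3 UMIs and 1 UMI. The innate lymphoid gate had 28 lower and 1 higher (10.8% and 21.7% of all genes; 18 lower without WT replicate 3), the HSC gate 23 and 3 (16.6% and 29.4%), and the basophil or mast gate 18 and 6 (16.8% and 35.3%; 3 higher without WT replicate 2). With total UMIs in place of TMM the HSC gate had 17 lower and 8 higher, the innate lymphoid gate 15 and 6, and the NK gate 7 and 20.

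**Figure D3:**
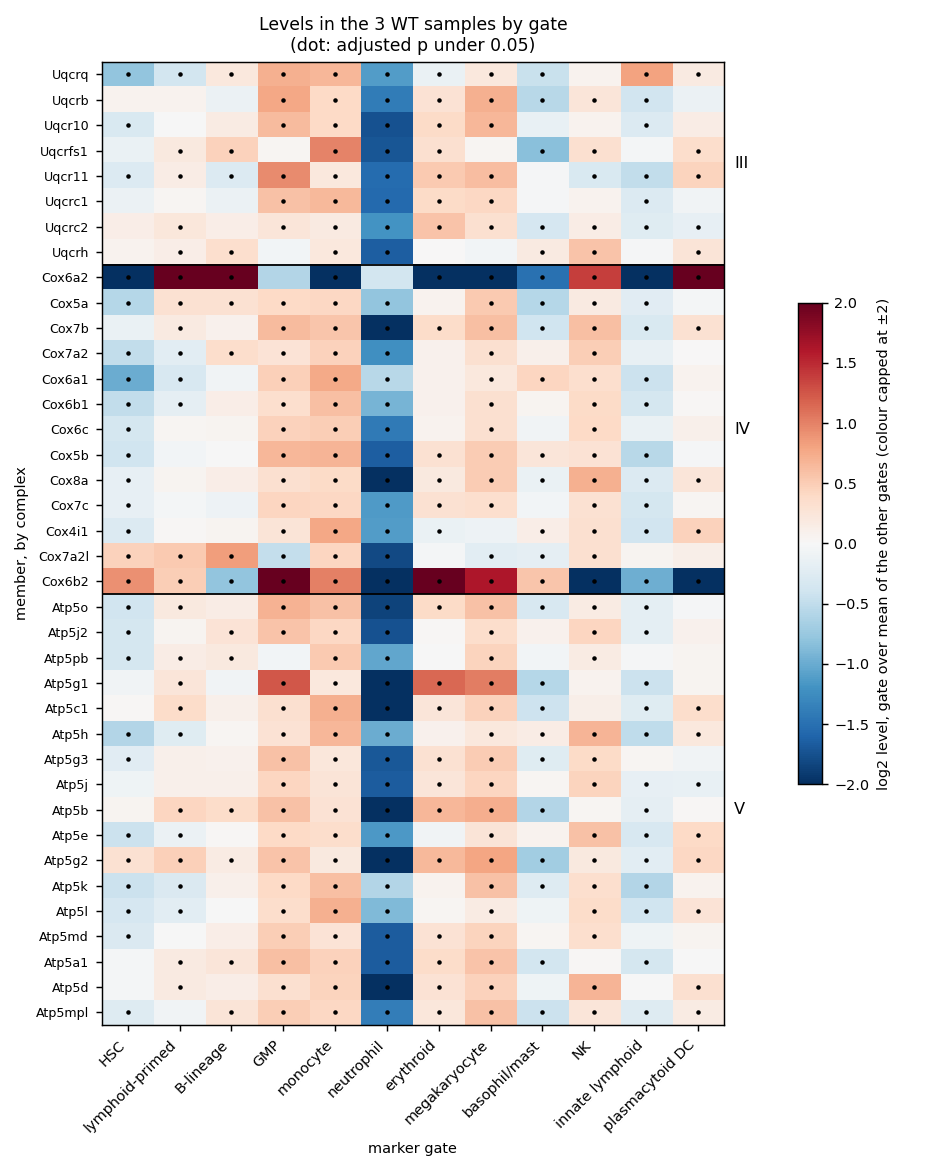
Log2 level of 38 members (rows, by complex; the rare Cox7a1 is not drawn) in each marker gate (columns) over the mean of the other gates, in the 3 WT samples; the colour is capped at ±2 and dots mark an adjusted p under 0.05. Of the rows drawn, all but Cox6a2 are lower in the neutrophil column with a dot, and the Cox6a2 row is strongest in the plasmacytoid dendritic gate.

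The members whose WT level ranged most between gates were Uqcrfs1 and Uqcr11 in complex III, Cox6a2 and Cox6b2 in complex IV, and Atp5g1 and Atp5g2 in complex V. Uqcrfs1 averaged 255 ± 12.3 CPM in monocytes and 44.7 ± 33.4 in neutrophils (SD, n = 3), a range of 2.49 on the log2 scale. Uqcr11, a small subunit of complex III, averaged 596 CPM in granulocyte-monocyte progenitors and 124 in neutrophils. The c-subunit gene Atp5g1 averaged 769 ± 34.9 CPM in granulocyte-monocyte progenitors, 726 ± 50.1 in the erythroid gate and 665 ± 12.9 in the megakaryocyte lineage gate, but 335 ± 24.5 in HSC and 55.9 ± 11.6 in neutrophils. The other c-subunit genes followed it in part: Atp5g2 was highest in the megakaryocyte lineage gate (1016 ± 37.5) and lowest in neutrophils (97.2 ± 29.0), while Atp5g3 lay between 201 and 341 CPM outside the neutrophil gate. Atp5g1 thus differed more than 2-fold between the HSC and granulocyte-monocyte progenitor gates, with no overlap of samples.

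Cox6b2 was highest in the erythroid gate, at 172, 175 and 195 CPM in WT 1, 2 and 3, and lowest in the NK gate, at 3.12, 5.03 and 4.52. It was also high in granulocyte-monocyte progenitors (96.6 ± 8.21) and the megakaryocyte lineage gate (74.0 ± 2.55). Of all Cox6b2 UMIs, the erythroid gate held 19.8% to 34.2% in Txnip-KO samples and 27.2% to 29.96% in WT samples.

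Cox6a2 had the widest range of any member. In WT it stood at 2494, 2533 and 2544 CPM in the plasmacytoid dendritic gate, 259, 338 and 375 in the lymphoid-primed progenitor gate and 68.6, 99.8 and 64.6 in the B-lineage gate. It was lowest in the megakaryocyte lineage gate, at 0.85 CPM from 6 UMIs, a range of 10.42 on the log2 scale. The samples of the first 3 gates did not overlap between gates. The plasmacytoid dendritic gate held 15.3% to 26.5% of all Cox6a2 UMIs in Txnip-KO samples and 37.1% to 43.7% in WT samples. Cells of this gate were fewer in Txnip-KO, 87, 76 and 136, against 260, 348 and 394 in WT. The lymphoid-primed progenitor gate held 34.0% to 56.2% of Cox6a2 UMIs in Txnip-KO and 32.1% to 34.35% in WT. Outside the tested gates lay 26.8% to 37.9% in Txnip-KO and 21.1% to 29.8% in WT.

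Within the plasmacytoid dendritic gate Cox6a2 stood at 1252, 2100 and 2069 CPM in Txnip-KO, against 2526, 2554 and 2560 in WT. Every Txnip-KO sample lay below every WT sample, but Txnip-KO replicate 1 lay far below the other two. The mean was 1807 ± 481 in Txnip-KO and 2547 ± 18.2 in WT (SD, n = 3; log2 fold change -0.50, SE 0.12, adjusted p = 0.0054, edgeR). A two-sided exact permutation test of the 6 levels gave p = 0.1, the smallest that 3 against 3 can give. Without Txnip-KO replicate 1 the value was -0.29 and still called. A Cox6a2 UMI was held by 93.1% to 95.6% of Txnip-KO cells and 94.7% to 97.3% of WT cells of the gate. With each cell thinned to 1000 UMIs the shares overlapped, at 66.7% to 82.9% and 78.1% to 82.8%. The 6 markers of the gate summed to 5520 to 5760 CPM in Txnip-KO and 4078 to 4702 in WT.

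The fall of Cox6a2 was also called outside that gate. In lymphoid-primed progenitors it stood at 101, 204 and 184 CPM in Txnip-KO, against 267, 351 and 388 in WT (-1.04, SE 0.21, adjusted p = 0.00212, edgeR). Plasmacytoid dendritic markers summed there to 134 to 186 CPM in Txnip-KO and 73.3 to 115 in WT, with none of the 6 at 0, and their part in the result was not tested. In the NK gate 14, 56 and 53 UMIs in Txnip-KO stood against 145, 66 and 117 in WT (-1.38, SE 0.31, adjusted p = 0.00337, edgeR). The NK level is low: thinned to 1000 UMIs, 0.285% to 1.05% of Txnip-KO and 1.07% to 1.802% of WT cells held a Cox6a2 UMI, beside 0% to 0.8% of Txnip-KO and 0 of 1288 WT erythroid cells (which allows up to 0.233%). NK cells held a median of 2913 to 3914 UMIs in Txnip-KO and 4029 to 4774 in WT, erythroid cells 12200 to 15390 and 14240 to 15530. Among granulocyte-monocyte progenitors the thinned share was 0% to 2.198% in Txnip-KO and 0.529% to 1.935% in WT, which covers both ranges of NK cells. As CPM of total UMIs, Cox6a2 stood at 3.14 to 14.7 in Txnip-KO and 16.5 to 24.9 in WT NK cells. It stood at 2.2 to 13.8 and 4.77 to 8.91 in granulocyte-monocyte progenitors, and at 0.63 to 1.13 and 0.559 to 1.29 in erythroid cells. How much of the NK level is background was not tested.

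**Figure D4:**
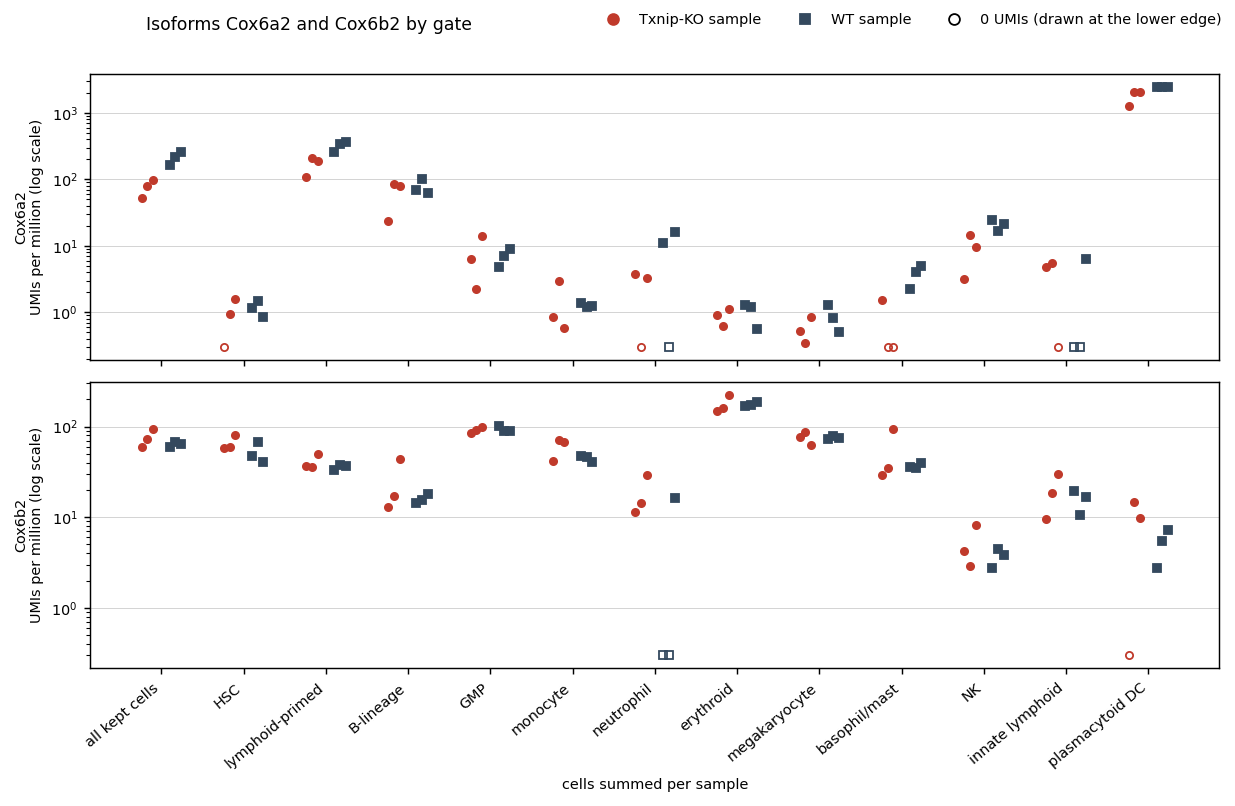
Cox6a2 (upper) and Cox6b2 (lower) as CPM of each sample's total UMIs (y axis, log scale), over all kept cells and by marker gate (x axis). Red circles are Txnip-KO samples, blue squares WT samples, and open symbols samples with 0 UMIs drawn at the lower edge; Cox6a2 is highest in the plasmacytoid dendritic gate and Cox6b2 in the erythroid gate.

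The genotype effect was then tested gate by gate, with the share of all genes called lower given beside each count (edgeR, adjusted over each gate's genes). In granulocyte-monocyte progenitors 35 of 38 members fell (14.8% of all genes; median -0.50), in lymphoid-primed progenitors 34 of 39 (23.6%; median -0.40) and in NK cells 30 of 38 (14.6%; median -0.43). In HSC 24 of 37 fell (9.92%; median -0.34), in the megakaryocyte lineage 21 of 37 (9.87%; median -0.31) and in plasmacytoid dendritic cells 19 of 37 (8.03%; median -0.31). Monocytes had 18 of 37 lower (11.7%; median -0.32) and 2 higher (9.82% of all genes), and erythroid cells 18 of 37 lower (14%; median -0.23). Few members were called in the innate lymphoid gate (5 of 37, 1.87%; median -0.25), the basophil or mast gate (5 of 37, 3.93%; median -0.25) and the B-lineage gate (4 of 37, 5.83%; median -0.24). Outside monocytes edgeR and DESeq2's Wald test called no member higher in any gate, while the share of all genes called higher was 8.4% in HSC, 22% in lymphoid-primed, 4.75% in B-lineage, 13.6% in granulocyte-monocyte progenitor, 4.39% in neutrophil, 13% in erythroid, 7.49% in megakaryocyte lineage, 3.92% in basophil or mast, 13.7% in NK, 1.84% in innate lymphoid and 8.72% in plasmacytoid dendritic cells. At an unadjusted p under 0.05, 1 member was higher in neutrophils and 1 in the megakaryocyte lineage.

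Counts of members with every Txnip-KO sample below every WT sample rest on no p-value. Such members numbered 36 of 38 in granulocyte-monocyte progenitors (21% of all genes), 35 of 39 in lymphoid-primed progenitors (28.8%), 34 of 38 in NK cells (20.7%), 31 of 37 in HSC (17.9%), 30 of 37 in the megakaryocyte lineage (18.9%) and 27 of 37 in plasmacytoid dendritic cells (17%). They numbered 24 of 37 in monocytes (19.6%), 22 of 37 each in basophil or mast (14.9%) and innate lymphoid cells (12%), 20 of 37 in erythroid cells (21.5%), 18 of 37 in B-lineage cells (14.9%) and 2 of 31 in neutrophils (12%).

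In neutrophils 0 of 31 fell, with 2.61% of all genes lower and a median of 0.04. At an unadjusted p under 0.05 also 0 were lower, and DESeq2's Wald test called 0. The gate is small, with 266, 21 and 106 Txnip-KO cells and 28, 42 and 29 WT cells. On simulated counts its fit recovered 51% of 1.5-fold changes set in genes above the median level, beside 89% in NK cells. Members' medians in the other gates, -0.23 to -0.50 on the log2 scale, are smaller changes than 1.5-fold. Recovery of changes that small was not simulated.

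By complex, granulocyte-monocyte progenitors had 8 of 8 complex III, 11 of 13 complex IV and 16 of 17 complex V members lower. Lymphoid-primed progenitors had 7 of 8, 11 of 14 and 16 of 17, and NK cells 6 of 8, 10 of 13 and 14 of 17. In plasmacytoid dendritic cells 0 of 8 complex III members were called by edgeR (4 at an unadjusted p under 0.05). Complexes IV and V had 8 of 12 and 11 of 17 lower there, with 8.03% of all genes lower. In that gate 7 of 8 complex III members had a negative log2 fold change (median -0.19). B-lineage and basophil or mast cells also had 0 of 8 complex III members called, and neutrophils 0 of 5. In the plasmacytoid dendritic gate the complex III share of UMIs overlapped between groups, at 0.223% to 0.229% in Txnip-KO and 0.225% to 0.254% in WT. Those of complexes IV and V did not overlap. The complex III share overlapped in the HSC, B-lineage, neutrophil, erythroid and basophil or mast gates as well. Over all members the Txnip-KO share was lowest relative to WT in granulocyte-monocyte progenitors (1.407%, 1.544% and 1.584%, against 1.875%, 1.922% and 1.916% in WT; 79.4% of the WT mean) and closest to WT in neutrophils (0.658%, 0.610% and 0.634%, against 0.642%, 0.679% and 0.656%; 96.2%). Neutrophils were also the gate in which these samples overlapped, and in the other 11 no Txnip-KO sample reached a WT sample.

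Counts in several gates moved when 1 sample was left out, while the median log2 fold change of members stayed below 0. Without WT replicate 2 or WT replicate 3 it was -0.32 and -0.32 in HSC (-0.34 with all samples) and -0.21 and -0.17 in erythroid cells (-0.23). Calls over all genes moved too: over all kept cells 1778 genes were lower without WT replicate 2, in place of 2840. Without WT replicate 2 the number of members lower was 7 in HSC, 9 in monocytes, 5 in erythroid cells, 9 in the megakaryocyte lineage and 8 in plasmacytoid dendritic cells, and without WT replicate 3 it was 10, 7, 6, 7 and 7. Without WT replicate 1 it was 5 in the megakaryocyte lineage. Without Txnip-KO replicate 1 it was 12 in HSC, 11 in monocytes, 10 in erythroid cells and 12 in the megakaryocyte lineage, and without Txnip-KO replicate 2 it was 11 in erythroid cells and 12 in the megakaryocyte lineage. The B-lineage count was 0 without Txnip-KO replicate 1, WT replicate 2 or WT replicate 3, and 7 without Txnip-KO replicate 2, 1 without Txnip-KO replicate 3 and 2 without WT replicate 1. For basophil or mast cells it was 0 without Txnip-KO replicate 2, WT replicate 1 or WT replicate 2, 1 without WT replicate 3, 9 without Txnip-KO replicate 3 and 10 without Txnip-KO replicate 1; for innate lymphoid cells it was 0 to 3 without any 1 sample. With the replicate number as a block, the B-lineage count was 10 and the basophil or mast count 1.

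Marker levels moved with genotype inside gates too. In the granulocyte-monocyte progenitor gate its own 6 markers summed to 6901 to 8039 CPM in Txnip-KO and 10940 to 12530 in WT, and the 6 HSC markers to 199 to 275 in Txnip-KO and 84.9 to 92.5 in WT. In the lymphoid-primed gate its own markers summed to 2742 to 2940 CPM in Txnip-KO and 2610 to 2854 in WT, and the HSC markers to 278 to 391 in Txnip-KO and 173 to 202 in WT. In the NK gate its own markers summed to 8683 to 10060 CPM in Txnip-KO and 9256 to 10620 in WT, and the HSC markers to 68.5 to 80.2 in Txnip-KO and 51.2 to 64.9 in WT. None of these markers was at 0 in these 3 gates, and their part in the counts of members was not tested.

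The share of cells with a dividing-cell UMI moved with genotype inside most gates. Such a share depends on UMIs per cell, which were fewer in Txnip-KO in some gates. Their medians were 9008 to 10780 in Txnip-KO and 14050 to 15820 in WT granulocyte-monocyte progenitors. In monocytes they overlapped (7144 to 9146 and 7711 to 9045). In HSC the share was 24.05% to 28.92% in Txnip-KO and 33.65% to 41.18% in WT, while 0 of the 8 dividing-cell genes were called lower. The part of depth was not tested. Cells with a dividing-cell UMI made up 62.6% to 64.8% of Txnip-KO and 80.9% to 82.6% of WT granulocyte-monocyte progenitors, 37.7% to 39.1% and 54.9% to 58.9% of lymphoid-primed progenitors, and 20% to 21.5% and 45.4% to 52.7% of monocytes. Among NK cells the groups overlapped, at 7.8% to 12.7% in Txnip-KO and 10.7% to 15.2% in WT. Restricted to cells with no dividing-cell UMI, 33 members fell in lymphoid-primed progenitors, 30 in NK cells, 23 in granulocyte-monocyte progenitors, 17 in plasmacytoid dendritic cells and 15 in HSC. Members' medians in these gates were -0.37, -0.40, -0.42, -0.30 and -0.31, beside 0.0086, 0.022, 0.012, 0.0078 and 0.0072 for all genes. Under the same restriction 9 fell in the erythroid gate, 2 in the megakaryocyte lineage, 1 in the basophil or mast gate and 0 in the monocyte, B-lineage and innate lymphoid gates. The members' medians there were -0.21, -0.25, -0.18, -0.23, -0.17 and -0.19 in the same order. These sums hold fewer cells, such as 13 in place of 118 megakaryocyte lineage cells in WT 1, and the part of this in the counts was not tested. Fewer genes were tested too, 4127 in place of 9061 in granulocyte-monocyte progenitors and 5447 in place of 9356 in the megakaryocyte lineage. The share of all genes called lower is not given for these restricted sums, so their counts cannot be read against it.

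**Figure D5:**
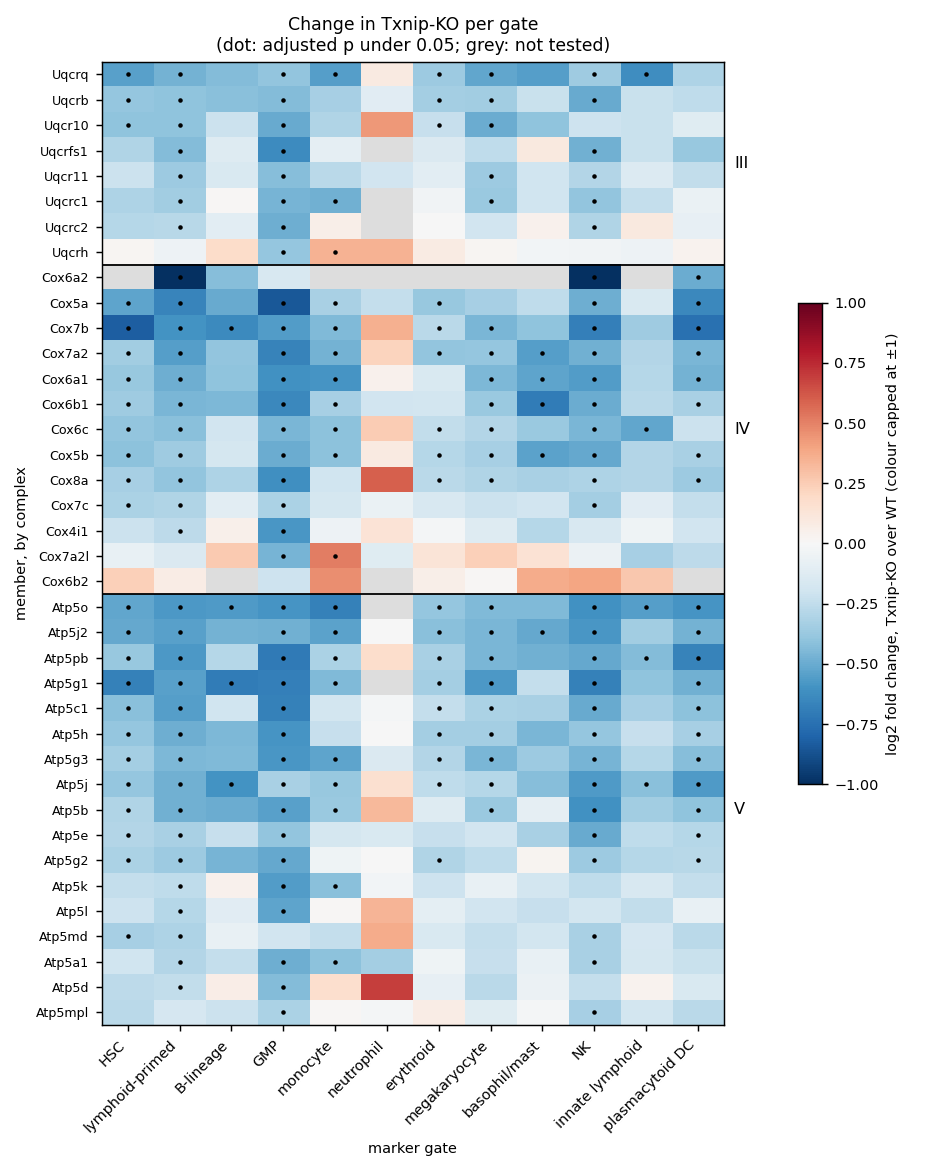
Log2 fold change of Txnip-KO over WT for 38 members (rows, by complex; Cox7a1 is not drawn) in each marker gate (columns), with the colour capped at ±1, dots for an adjusted p under 0.05 and grey for not tested. Blue (lower in Txnip-KO) fills most columns except neutrophil, where no member was called; the 2 called rises are Uqcrh and Cox7a2l in monocytes.

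Members differed in how many gates called them lower. Atp5o fell in 10 of the 11 gates where it was tested and Atp5j, another stator subunit, in 10 of 12. Atp5g1 fell in 9 of 11, and Cox5b, Cox7b, Cox7a2, Atp5pb and Atp5j2 in 9 of 12, while Uqcrq fell in 8 of 12, the most in complex III. At the other end, Atp5d, Atp5l, Atp5mpl and Cox4i1 fell in 2 of 12, Uqcrh and Cox7a2l each fell in 1 and rose in 1 of 12, and Cox6b2 fell in 0 of 9 (values from -0.21 to 0.47).

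In the progenitor gates, the called members with the largest changes were Cox7b and Atp5g1 in HSC, Cox6a2 and Cox5a in lymphoid-primed progenitors, and Cox5a and Atp5pb in granulocyte-monocyte progenitors. In HSC, Cox7b averaged 186 ± 7.3 CPM in Txnip-KO and 330 ± 26.0 in WT (SD, n = 3 each; -0.82, SE 0.10, adjusted p = 1.04e-05, edgeR). Atp5g1 averaged 236 ± 30.0 CPM in Txnip-KO HSC and 381 ± 28.1 in WT HSC (-0.68, adjusted p = 0.00014, edgeR). Cox5a, an early-joining subunit of complex IV, averaged 284 ± 26.9 CPM in Txnip-KO and 513 ± 28.1 in WT granulocyte-monocyte progenitors (-0.85, SE 0.097, adjusted p = 7.56e-07, edgeR). The groups did not overlap for any of these. Cox5a averaged 306 ± 32.4 CPM in Txnip-KO and 484 ± 17.3 in WT lymphoid-primed progenitors (-0.66), and Atp5pb 254 ± 38.1 and 413 ± 17.4 in granulocyte-monocyte progenitors (-0.71). Megakaryocyte lineage cells were led by Atp5g1 (461 ± 62.8 in Txnip-KO, 689 ± 12.8 in WT; -0.58) and Uqcrq (235 ± 25.3 and 336 ± 17.7; -0.52), and erythroid cells by Atp5j2 (340 ± 36.9 and 456 ± 32.8; -0.42) and Cox7a2 (283 ± 28.3 and 373 ± 23.7; -0.39).

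Lymphoid and myeloid gates gave overlapping names. Cox7b averaged 264 ± 29.5 CPM in Txnip-KO and 424 ± 25.7 in WT NK cells (-0.68, adjusted p = 0.000123, edgeR). It averaged 233 ± 31.4 and 387 ± 20.9 in plasmacytoid dendritic cells (-0.75, adjusted p = 0.000141, edgeR), and 230 ± 27.0 and 355 ± 66.5 in B-lineage cells (-0.63, adjusted p = 0.0441, edgeR). Cox7b was thus named in 4 gates, always with every Txnip-KO sample below every WT sample. Atp5pb was the other in plasmacytoid dendritic cells (271 ± 30.5 in Txnip-KO, 431 ± 36.6 in WT; -0.67) and Atp5g1 in B-lineage cells (223 ± 59.9 and 355 ± 27.7; -0.70). Innate lymphoid cells were led by Uqcrq (362 ± 68.2 and 560 ± 17.2; -0.62) and Atp5o (191 ± 36.6 and 283 ± 9.29; -0.55), monocytes by Atp5o (213 ± 15.5 and 339 ± 11.3; -0.68) and Cox6a1 (199.9 ± 13.1 and 300.4 ± 13.4; -0.59), and basophil or mast cells by Cox6b1 (295 ± 36.8 and 475 ± 36.8; -0.70) and Cox7a2 (268 ± 28.6 and 389 ± 46.6; -0.55).

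Monocytes were the gate with calls in both directions. Cox7a2l stood at 584, 648 and 550 CPM in Txnip-KO monocytes, against 431, 411 and 402 in WT monocytes, with no overlap (0.52, SE 0.10, adjusted p = 0.00195, edgeR). Uqcrh stood at 772, 867 and 856 CPM in Txnip-KO, against 645, 647 and 669 in WT, again with no overlap (0.35, SE 0.093, adjusted p = 0.0158, edgeR). With total UMIs in place of TMM monocytes had 25 members lower and 2 higher. Among monocytes without a dividing-cell UMI 0 were called higher by edgeR, and without Txnip-KO replicate 2, Txnip-KO replicate 3 or WT replicate 2 the count was 1; without Txnip-KO replicate 1 it was 3.

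Whether the genotype effect differs between gates was tested by the interaction of gate and genotype, each gate against NK (edgeR with the sample as a block, 12243 genes, 39 members). In neutrophils 28 members had a more positive effect than in NK (6.84% of all genes differed), with a median difference of 1.02 beside 0.51 for all genes. Cox8a (1.45, adjusted p = 7.62e-09, edgeR) and Cox6c (1.22, adjusted p = 5.69e-07, edgeR) had the smallest p. That count was 5 without Txnip-KO replicate 1, the sample with the most neutrophils, and 1 with total UMIs in place of TMM. In monocytes 7 members had a more positive effect (7.02% of all genes): Cox7a2l (0.59, adjusted p = 2.87e-05, edgeR), Atp5d (0.42), Uqcrh (0.40), Uqcrfs1, Atp5mpl, Atp5c1 and Atp5g2. With total UMIs the monocyte split was 1 more positive and 4 more negative, and without Txnip-KO replicate 1, Txnip-KO replicate 3, WT replicate 1 or WT replicate 3 the count was 2.

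Differences in the other gates were few. Granulocyte-monocyte progenitors had 2 members with a more negative effect than NK, Cox4i1 (-0.46, adjusted p = 0.0176, edgeR) and Cox7a2l (-0.45, adjusted p = 0.0208, edgeR), with 1.77% of all genes differing. That count was 1 without Txnip-KO replicate 1, 5 without Txnip-KO replicate 3 and 0 without WT replicate 1 or WT replicate 2. Erythroid cells had 3 with a more positive effect, Atp5b, Atp5mpl and Cox7b (4.92% of all genes; 0 with total UMIs), and basophil or mast cells 1, Atp5b (6.16%). The erythroid count was 8 without Txnip-KO replicate 1 or Txnip-KO replicate 2 and 1 without Txnip-KO replicate 3, and the basophil or mast count was 2 and 3 without Txnip-KO replicates 1 and 2 and 0 without Txnip-KO replicate 3, WT replicate 1 or WT replicate 3. In HSC (0.825%), lymphoid-primed (3.53%), B-lineage (1.58%), megakaryocyte lineage (1.58%), innate lymphoid (0.114%) and plasmacytoid dendritic cells (0.833%) edgeR called 0 members, with 1, 2, 5, 5, 5 and 4 at an unadjusted p under 0.05.

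The partner genes outside the symbol rule, on lists drawn up with earlier results known, were read over all kept cells, where 19.4% of all genes fell and 21.6% rose. Cyc1 (cytochrome c1 of complex III), Cycs (the carrier cytochrome c) and Ndufa4 (now counted with complex IV) all fell, by 0.52, 0.71 and 0.45 on the log2 scale. Of the 6 subunits of complexes III to V that mitochondrial DNA encodes, 1 fell and 2 rose, counts too near those shares to be a result about the list. mt-Co1, a catalytic subunit of complex IV, stood at 5578, 6079 and 5869 CPM in Txnip-KO, against 4255, 3893 and 4118 in WT (0.51, SE 0.065, adjusted p = 0.0015, edgeR). It moved opposite to the nuclear subunits of its complex, with no overlap between groups. mt-Co3 rose by 0.17 and mt-Atp8 fell by 0.56; mt-Atp8 overlaps mt-Atp6 on the mitochondrial genome, so their reads may be split. mt-Cytb, mt-Atp6 and mt-Co2 were not called (-0.17, -0.12 and 0.029).

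Complex II, the assembly factors and the regulators are set beside the same 19.4% of all genes lower and 21.6% higher. Of 8 complex II subunit and assembly genes 4 fell, Sdhb (-0.54), Sdhc (-0.26), Sdhaf2 (-0.22) and Sdhd (-0.28). Of 6 complex III assembly genes, Uqcc2 (-0.73) and Uqcc3 (-0.20) fell and Ttc19, which helps renew the Rieske protein, rose (0.30). Of 24 complex IV assembly genes tested 11 fell, led by Higd1a (-0.51), Coa6 (-0.46), Coa3 (-0.59) and Slirp (-0.37). Of 4 complex V assembly genes, Atpaf2 (-0.33) and Fmc1 (-0.38) fell. Among 12 regulators of these genes the counts, 1 lower and 1 higher, were below those shares. Tfam, which packs and transcribes mitochondrial DNA, fell (-0.38), the nuclear receptor Esrra rose (0.32), and Nrf1 (0.17), Gabpa (-0.053) and Yy1 (0.035), whose motifs were searched above, were not called.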

How the data were processed

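The deposited files are 10x matrices of UMI counts per gene and cell barcode for each of the 6 samples, for which the submitters' processing notes name Cell Ranger 6.1.1, CASAVA 1.8 and Seurat 2.3.4. These counts are whole numbers with no normalization; the build the reads were aligned to was not given in the sources used. Coordinates are GENCODE M21 (GRCm38) by gene identifier, and promoters are RefSeq's.

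Barcodes with at least 500 genes, at least 1000 UMIs and at most 10% mitochondrial UMIs passed (44399), and 2886 were removed as doublets with Scrublet scores in scanpy 1.11.5, at an expected 0.8% per 1000 barcodes; Scrublet's own threshold marked 1399. UMIs were summed per sample, and per sample and gate, and tested with edgeR 4.0.16 in R 4.3.3 (filterByExpr, TMM, quasi-likelihood fit, Benjamini-Hochberg over all genes tested, threshold 0.05). The genotype fit has no block. Levels between gates and the gate by genotype interaction keep the sample as a block. Exact permutation tests used scipy 1.17.1. The fits were tested on simulated counts beforehand, with 1.5-fold and 2-fold changes set in genes above the median level. They recovered 91% and 100% of these over all kept cells, 89% and 100% in NK cells and 51% and 85% in neutrophils.

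The labels of both genotypes share replicate numbers but state no pairing. Deviations of same-numbered samples correlated at 0.141, 0.165 and 0.190, and other pairs were below 0. Correlations this weak cannot show that samples were paired, so the replicate number was used as a block only as an alternative.

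Members and lists were chosen with earlier results of these data known. Full values are given for the 3 members per complex with the smallest p, members called against their complex and the tissue isoforms; per gate for the 2 called members with the largest change and a mean of at least 10 CPM; and between gates for the 2 per complex with the widest WT range. Alternatives were total UMIs (chosen after seeing the data), DESeq2 1.42.0, no filter, thinning to 1000 UMIs, no doublet removal, every deposited barcode, an equal number of cells of each gate (2725 per sample in all), cells without a dividing-cell UMI, a gate at 4 of 6 markers, the replicate block and leaving out each sample.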

Additional observations from a re-analysis of the deposited data

Results flagged for a closer look

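The results below are differences of the Txnip-KO effect between a gate and the NK gate. Each was tested as an interaction (edgeR with the sample as a block, Benjamini-Hochberg over 12243 genes). A positive difference means a smaller fall, or a rise, relative to NK, on levels scaled by TMM across all gates.

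In neutrophils 28 members differed, all positive, with Cox8a at 1.45 and Cox6c at 1.22 on the log2 scale, while 6.84% of all genes differed. The median difference was 1.02 for members and 0.51 for all genes, so part of these values is shared by genes at large. In the fits within each gate the members' median was 0.04 in neutrophils and -0.43 in NK cells. The neutrophil count was 5 without Txnip-KO replicate 1 and 1 with total UMIs in place of TMM. In monocytes 7 differed, all positive, with Cox7a2l at 0.59 and Atp5d at 0.42; the count was 2 without Txnip-KO replicate 1 or 3 or WT replicate 1 or 3, and with total UMIs 1 was positive and 4 were negative. In granulocyte-monocyte progenitors 2 differed, both negative, Cox4i1 at -0.46 and Cox7a2l at -0.45; the count was 5 without Txnip-KO replicate 3 and 0 without WT replicate 1 or WT replicate 2, and 1 without Txnip-KO replicate 1. In erythroid cells 3 differed, all positive, with Atp5b at 0.49 and Atp5mpl at 0.42; the count was 8 without Txnip-KO replicate 1 or 2 and 1 without Txnip-KO replicate 3, and 0 with total UMIs. In basophil or mast cells 1 differed, Atp5b at 0.42. That count was 0 without Txnip-KO replicate 3, WT replicate 1 or WT replicate 3, 2 without Txnip-KO replicate 1 and 3 without Txnip-KO replicate 2. Of all genes, 7.02% differed in monocytes, 1.77% in granulocyte-monocyte progenitors, 4.92% in erythroid cells and 6.16% in basophil or mast cells. With 39 members tested, the erythroid count lay near its share and the basophil or mast count below it. Neither is a result about the members.

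Beside these, the share of cells with a dividing-cell UMI was 20% to 21.5% in Txnip-KO and 45.4% to 52.7% in WT monocytes, against 7.8% to 12.7% in Txnip-KO and 10.7% to 15.2% in WT NK cells. Its part in the differences was not tested.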

How the results depend on the processing

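Over all kept cells the count of members lower stayed between 23 and 35 under every alternative and left-out sample run, and no alternative called a member higher. Of 638 values of single members under 16 settings, 583 kept direction and call, 45 lost the call, 6 gained it and 4 changed sign: Uqcrh (0.048) and Cox7a2l (0.033) with total UMIs, Cox4i2 (0.068) with equal gate composition, and Cox6b2 (-0.062 without Txnip-KO replicate 3, up to 0.294 without Txnip-KO replicate 1); the cause was not tested.

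Among cells without a dividing-cell UMI the members lower were 15 in HSC, 0 in B-lineage, 23 in granulocyte-monocyte progenitor, 0 in monocyte, 9 in erythroid, 2 in megakaryocyte lineage, 1 in basophil or mast and 0 in innate lymphoid cells. These sums hold fewer cells and fewer genes tested, and the share of all genes called lower in them is not given. The members' median log2 fold change stayed negative in each of these gates. With total UMIs they were 2 each in B-lineage, basophil or mast and innate lymphoid cells. B-lineage had 0 by DESeq2's Wald test and 0 at a gate of 4 of 6 markers, where innate lymphoid cells had 3. With the replicate block B-lineage had 10 and basophil or mast 1; the block moved no other count of calls by over 1.5 times. With no filter on low counts basophil or mast had 10.

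For differences from NK, total UMIs gave 5 in granulocyte-monocyte progenitors, 1 in neutrophils, 5 in monocytes (4 more negative and 1 more positive), 0 in erythroid cells and 1 in the megakaryocyte lineage, and DESeq2's size factors gave 6 in granulocyte-monocyte progenitors. For WT levels, total UMIs gave 8 higher in HSC, 3 lower in granulocyte-monocyte progenitors, 7 lower in NK, and 6 higher and 15 lower in innate lymphoid cells. Levels between gates in Txnip-KO samples gave, as higher and lower, 7 and 1 in B-lineage, 20 and 8 in granulocyte-monocyte progenitors, 3 and 23 in neutrophils, 14 and 5 in NK, and 7 and 5 in plasmacytoid dendritic cells. In the same samples 5 were higher in lymphoid-primed progenitors, 0 in basophil or mast cells, and 1 each lower in erythroid and megakaryocyte lineage cells. Shares of all genes higher and lower are not given for these alternative fits, so the counts cannot be read against them.

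Leaving out 1 sample at a time, complex III had 5 to 7 members lower over all kept cells, complex IV 9 to 11 and complex V 9 to 16. By gate the members lower were 7 to 24 in HSC, 29 to 34 in lymphoid-primed, 0 to 7 in B-lineage, 32 to 35 in granulocyte-monocyte, 7 to 20 in monocyte, 0 in neutrophil, 5 to 22 in erythroid, 5 to 27 in megakaryocyte lineage, 0 to 10 in basophil or mast, 24 to 34 in NK, 0 to 3 in innate lymphoid and 7 to 22 in plasmacytoid dendritic cells. Cox6a2 in the plasmacytoid dendritic gate lay at -0.63 to -0.29. Differences from NK numbered 0 in HSC, 0 in lymphoid-primed, 0 to 1 in B-lineage, 0 to 5 in granulocyte-monocyte, 2 to 9 in monocyte, 5 to 31 in neutrophil, 1 to 8 in erythroid, 0 to 1 in megakaryocyte lineage, 0 to 3 in basophil or mast, 0 in innate lymphoid and 0 to 1 in plasmacytoid dendritic cells. WT levels were higher for 3 to 4 in HSC, 16 in lymphoid-primed, 8 to 12 in B-lineage, 33 in granulocyte-monocyte, 35 to 36 in monocyte, 0 in neutrophil, 22 in erythroid, 30 to 33 in megakaryocyte lineage, 3 to 6 in basophil or mast, 24 to 28 in NK, 1 in innate lymphoid and 13 to 17 in plasmacytoid dendritic cells. They were lower for 18 to 23 in HSC, 7 to 8 in lymphoid-primed, 0 to 1 in B-lineage, 1 to 2 in granulocyte-monocyte, 0 to 1 in monocyte, 33 to 37 in neutrophil, 1 to 3 in erythroid, 1 to 3 in megakaryocyte lineage, 14 to 20 in basophil or mast, 1 to 2 in NK, 18 to 25 in innate lymphoid and 0 to 2 in plasmacytoid dendritic cells.

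The neutrophil gate holds 70389 UMIs in its shallowest sample, and 31 of the 44 members had enough counts to be tested there; the part of depth in its count was not tested.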

Other observations

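The 6 subunits that mitochondrial DNA encodes did not move as 1 group across gates (edgeR, adjusted over each gate's genes, lower and higher of those tested). In erythroid cells 1 fell and 5 rose (median log2 fold change 0.26; 14% of all genes lower, 13% higher), in the megakaryocyte lineage 1 fell and 3 rose (median 0.18; 9.87% and 7.49%), and in plasmacytoid dendritic cells 3 rose and the others were not called (median 0.13; 8.72% of all genes higher). In NK cells 3 fell and 1 rose (median -0.26; 14.6% and 13.7%). The other gates had 0 to 2 lower and 0 to 2 higher, with neutrophils, where 5 were tested, the gate with none called by edgeR.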
